A study of Mus musculus with 4 samples.

Results

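The genes described here encode the proteins of the cytosolic ribosome, the particle that translates mRNA in the cytoplasm. They were taken by name, as every symbol that begins with Rpl or Rps followed by a digit or a p, with the kinase names (Rps6k) and the pseudogene names (-ps) left out. This rule found 85 of the 32285 genes counted. Of these, 30 encode proteins of the small subunit and 46 of the large subunit. The remaining 9 are Rpl10l, Rpl22l1, Rpl36al, Rpl39l, Rpl3l, Rpl7l1, Rps27l and Rps27rt, which resemble a ribosomal protein gene, and Rps19bp1, which encodes a protein that binds Rps19 and is not itself a ribosomal protein. The rule missed components with other names, among them Rpsa and Rack1 of the small subunit, and Fau, which encodes a ribosomal protein fused to a ubiquitin-like domain. These 3 are described beside the family and are not counted in it.

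A ribosome holds most of its proteins in single copies, so their mRNAs are made in concert and are among the most abundant of a cell. Many of them begin with a C and a stretch of further pyrimidines, the TOP motif, through which mTOR signaling raises or lowers their translation together. Resting lymphocytes hold little mRNA in all, and ribosomal protein mRNAs take a large part of it.

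The cells came from draining lymph nodes of wild-type C57BL/6 mice, without enrichment of any cell type. Mice of the EV group had received 100 μg of extracellular vesicles (EVs) of human induced pluripotent stem cells under the skin. The study's methods give PBS for the control mice and collection of the nodes on day 5, whereas the labels give untreated controls and a duration of 24 h. Each group had 2 biological replicates with 1 library each, called control 1, control 2, EV 1 and EV 2.

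Values are unique molecular identifiers (UMIs), which count each captured mRNA molecule once. The libraries held 50749656, 58100433, 68116085 and 70418672 UMIs in the order control 1, control 2, EV 1 and EV 2, in which values are given throughout, and 7891 to 8529 cells per library passed the filters. Of the 34323 barcodes, 115 strings occurred in 2 libraries. Cells were placed in a class by UMIs of a few genes. There were 3016, 2503, 4866 and 4301 B cells (Cd79a without Cd3e), 1383, 1624, 923 and 1267 CD4 T cells (Cd3e and Cd4), 1682, 1861, 1003 and 1355 CD8 T cells (Cd3e and Cd8a) and 42, 80, 91 and 67 macrophages (at least 2 UMIs of C1qa and C1qb). The median cell held 4141.5 to 5811 UMIs in B cells, 6046 to 8339 in CD4 T cells, 7397 to 9871 in CD8 T cells and 1100 to 1456 in macrophages, and control 1 had the shallowest cells in each class.

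Markers that the gates did not use were high in their own lymphocyte class. The 6 further B cell markers summed to 8276 to 9133 CPM (UMIs scaled to the UMIs of the class) in B cells and to 183 to 217 CPM in T cells, and the 6 T cell markers to 4397 to 5069 CPM in T cells and to 52.2 to 111 CPM in B cells. The macrophage gate was less pure. Its 6 further macrophage markers summed to 19161, 16927, 11960 and 9042 CPM, while the B cell markers reached 2784, 2503, 4117 and 4769 CPM and the CD8 T cell markers (Cd8b1, Nkg7 and Ccl5) 1628, 644, 249 and 203 CPM. Thus the EV libraries held less of the macrophage list and more of the B cell list than the control libraries. Of the macrophages 5, 10, 20 and 16 cells were also in the B cell gate. What part these transcripts had in the macrophage values was not tested.

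The coding sequences of 2 short members of the family are printed because the results turn on genes of this size (GRCm38, GENCODE annotation, 5′ to 3′). Rps28 (chromosome 17, 33819027 to 33824562, reverse strand) encodes 69 residues with 1 cysteine codon, in capitals. Rpl41 (chromosome 10, 128548114 to 128549305, reverse strand) encodes the shortest protein of the family, with 25 residues and no cysteine codon.
Rps28: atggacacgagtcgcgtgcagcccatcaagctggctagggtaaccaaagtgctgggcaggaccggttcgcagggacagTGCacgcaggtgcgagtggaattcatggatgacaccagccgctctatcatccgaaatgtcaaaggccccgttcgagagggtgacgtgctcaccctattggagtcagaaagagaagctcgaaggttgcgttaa
Rpl41: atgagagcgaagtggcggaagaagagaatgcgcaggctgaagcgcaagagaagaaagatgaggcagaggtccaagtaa

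Rps27 (chromosome 3, 90212522 to 90213651, reverse strand) and Rps27l (chromosome 9, 66946086 to 66949516, forward strand) are printed because these paralogs differed between macrophages and B cells in opposite directions. Both encode 84 residues, and the capitals mark the 61 of 255 coding bases at which they differ (76.1% identical).
Rps27: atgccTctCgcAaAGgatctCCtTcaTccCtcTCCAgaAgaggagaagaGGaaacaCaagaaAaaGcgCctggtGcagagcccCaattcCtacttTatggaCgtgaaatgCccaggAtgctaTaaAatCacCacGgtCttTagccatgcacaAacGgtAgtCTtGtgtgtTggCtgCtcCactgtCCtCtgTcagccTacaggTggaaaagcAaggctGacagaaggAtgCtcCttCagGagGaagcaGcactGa
Rps27l: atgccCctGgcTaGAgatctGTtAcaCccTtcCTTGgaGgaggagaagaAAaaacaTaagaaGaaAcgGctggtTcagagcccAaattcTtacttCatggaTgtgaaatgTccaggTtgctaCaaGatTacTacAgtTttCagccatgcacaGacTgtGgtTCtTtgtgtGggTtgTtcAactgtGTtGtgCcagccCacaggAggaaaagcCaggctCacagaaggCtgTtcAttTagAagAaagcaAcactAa
A further copy, Rps27rt, has the coding sequence of Rps27 with 0 of 255 bases changed. Counts of such genes are uncertain. Of the 31-base words in the last 300 bases of the transcript, 100% of those of Rps27 also occur in Rps27rt, 96.3% of those of Rpl35 in Gm2000, 87.0% of those of Rps18 in Gm11361, 74.1% of those of Rpl41 in Gm10076 and 43.3% of those of Rpl29 in Gm3550.

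The family held its largest share of UMIs in CD8 T cells, a smaller one in CD4 T cells and a still smaller one in B cells, in each of the 4 libraries. The shares were 32.3%, 32.6%, 32.9% and 30.3% in CD8 T cells and 29.7%, 30.4%, 29.8% and 27.5% in CD4 T cells. They were 22.1%, 22.7%, 22.9% and 20.2% in B cells and 19.5%, 22.2%, 19.3% and 20.2% in macrophages. CD8 T cells exceeded CD4 T cells by 2.68 ± 0.39 percentage points (SD, n = 4 libraries), and CD4 T cells exceeded B cells by 7.38 ± 0.39 points. Each of these held in 4 of 4 libraries (two-sided exact permutation test, p = 0.125, the smallest that 4 pairs allow). B cells were above macrophages in 3 of 4 libraries only, by 1.66 ± 1.74 points (exact permutation test, p = 0.25). When every cell was thinned to 1000 UMIs, the first pair of differences was 2.55 and 7.22 points, and B cells were above macrophages in 2 of 4 libraries. Thinning left out 14 control and 15 EV B cells, 1 control CD4 T cell, and 55 of 122 control and 53 of 158 EV macrophages.

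**Figure D1:**
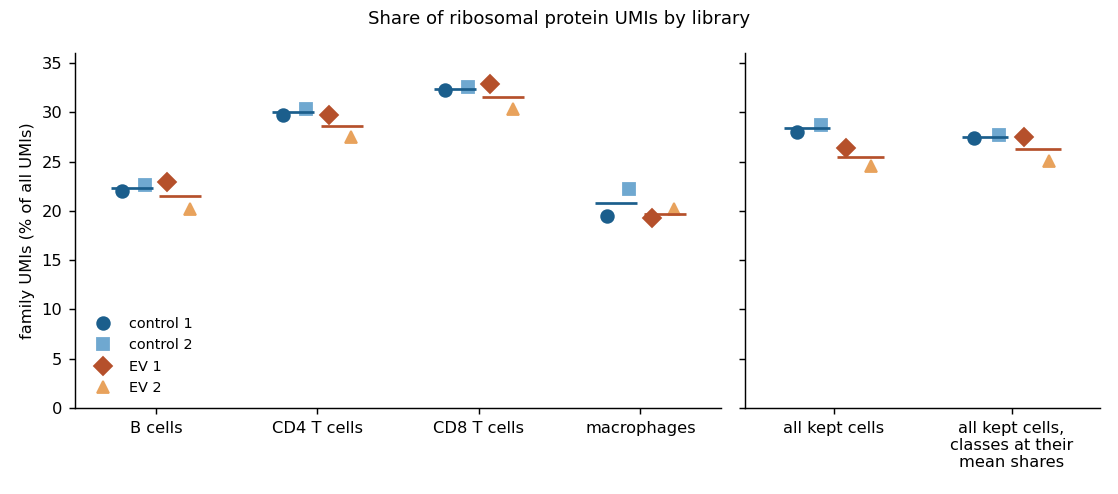
Share of UMIs from the family (vertical axis, percent) in each class and, in the right panel, over all kept cells as counted and with the classes at their mean shares; each point is a library and each bar a group mean. Control and EV points overlap within every class and separate over all kept cells as counted, where they stand at 28.1%, 28.7%, 26.4% and 24.6%.

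The family shares of EV and control libraries overlapped in each of the 4 classes. In B cells the share was 22.4% ± 0.43 in control and 21.5% ± 1.94 in EV libraries (SD, n = 2 each), a difference of −0.82 percentage points (two-sided exact permutation test, p = 1). The differences were −1.42 points in CD4 T cells (exact permutation test, p = 0.67), −0.83 points in CD8 T cells (exact permutation test, p = 1) and −1.13 points in macrophages (exact permutation test, p = 0.67). A comparison of 2 with 2 libraries cannot give a p below 0.33. EV 2 alone was lowest in the 3 lymphocyte classes. Without it, EV 1 was 0.56 points above the controls in B cells, 0.45 points above in CD8 T cells and −0.26 points from them in CD4 T cells. In macrophages EV 1 was lowest, and the stricter gate, which kept 154 of 280 macrophages, gave a difference of 2.31 points.

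Over all kept cells, by contrast, the family held 28.1% and 28.7% in control and 26.4% and 24.6% in EV libraries, with no overlap (difference −2.94 points, exact permutation test, p = 0.33). The cell make-up moved at the same time. Of these UMIs, B cells, in which the family share is low, held 27.8% and 24.1% in control and 51.1% and 42.1% in EV libraries. CD8 T cells, in which it is high, held 26.6% and 30.2% in control and 17.1% and 20.6% in EV libraries. The cells in no lymphocyte gate held 27.5% and 24.3% in control and 18.6% and 21.3% in EV libraries. Among them the family share itself was 29.0%, 28.6%, 27.4% and 25.6%, with no overlap (difference −2.30 points, exact permutation test, p = 0.33). With B cells, both T cell classes and the remaining cells set to their mean shares, the values became 27.4%, 27.7%, 27.5% and 25.05%. The groups then overlapped, as EV 1 lay between the controls, with a difference of −1.26 points (exact permutation test, p = 0.67). This reweighting was added after the values were seen.

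Other abundant transcripts moved between the same libraries. In B cells the mitochondrially encoded genes took 3.28%, 3.18%, 3.47% and 3.85% of the UMIs. Gm42418, which overlaps a ribosomal RNA repeat, took 0.839%, 0.963%, 0.557% and 0.0837%, so that EV 2 stood apart here as well. The 10 genes of a heat shock list took 0.189%, 0.214%, 0.336% and 0.354%, higher in both EV libraries. In macrophages they took 0.316%, 0.291%, 0.477% and 0.422%, also higher in both EV libraries. Of the tested genes of this list, 8 of 10, 6 of 9, 8 of 10 and 0 of 6 were called higher in EV libraries. These counts are for B cells, CD4 and CD8 T cells and macrophages. Over all genes tested, 2.55%, 1.09%, 2.2% and 0.0286% were called in these classes, in either direction. With the UMIs of the mitochondrially encoded genes, Gm42418, Malat1 and 4 further genes left out of the denominator, the family share differed by −1.02, −1.79, −1.20 and −1.88 points between EV and control in these classes, further below 0 in each than with them.

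Relative to all other genes, no family member was called in any class. UMIs were added up per library and class, and EV was compared with control by edgeR's quasi-likelihood test with TMM normalization, which scales libraries to the bulk of their genes. An adjusted p under 0.05 was reached by 0 of 82 members tested in B cells, where 2.55% of all genes tested reached it, by 0 of 83 in CD4 T cells (1.09% of all genes), 0 of 83 in CD8 T cells (2.2%) and 0 of 81 in macrophages (0.0286%). An unadjusted p under 0.05 was found for 5, 10, 9 and 9 members and for 18.9%, 16.7%, 18.2% and 9.06% of all genes. DESeq2 instead called Rpl35, Rps27, Rps28 and Rps29 in B cells and Rpl35, Rpl38, Rps27 and Rps28 in CD4 T cells. It called Rpl38 and Rps27 in CD8 T cells and 0 members in macrophages. All of these calls were lower in EV libraries. Of the 12404, 9090, 8450 and 12932 genes to which it gave an adjusted p, it called 3.68%, 1.88%, 2.01% and 0.00773%. Single libraries changed the edgeR counts. In the order of classes given, 13, 13, 18 and 0 members were called without EV 1, where 19.6%, 16.5%, 16.9% and 0.547% of all genes were. Without EV 2 they were 1, 6, 8 and 0, against 7.18%, 6.87%, 5.64% and 0.937% of all genes. They were 0, 0, 0 and 2 without control 1 (0.69%, 0.757%, 1.48% and 1.81% of all genes) and 0, 1, 2 and 1 without control 2 (0.84%, 1.43%, 2.9% and 1.91% of all genes).

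The tested members had a median log2 fold change, EV over control, of 0.06, 0.00, 0.03 and −0.17 in B cells, CD4 and CD8 T cells and macrophages, against 0.00 in each class over all genes tested. Too low for the test were Rpl10l, with 0 UMIs in every class, Rpl3l, with 0 to 3 UMIs per library and class, Rpl39l in B cells and macrophages and Rps19bp1 in macrophages.

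Within the family, edgeR called Rps29 and Rps27 lower in B cells and Rps29 lower in CD8 T cells, but these calls depended on single libraries. For this comparison the library size was set to the UMIs of the family, so that a member moves only if its share of the family moves, and a fall of some members raises the share of the others. The calls were 2 of 82 members in B cells, where 3.05% of all genes were called on this scale and 1.48% as lower, and 1 of 83 in CD8 T cells (0.738% of all genes called, 0.221% as lower). They were 0 of 83 in CD4 T cells (0.698%) and 0 of 81 in macrophages (0%), with 10 and 1 members at an unadjusted p under 0.05 (13.1% and 10.3% of all genes). DESeq2 called 0 members in B cells, Rps29 in CD4 T cells, Rps29 in CD8 T cells and 0 in macrophages. Of the 14081, 13331, 10408 and 898 genes to which it gave an adjusted p, it called 1.78%, 0.893%, 0.932% and 0.78%. The fits by edgeR tested 13133, 11896, 12199 and 3563 genes, so the shares of the 2 methods have unlike denominators. In the same order of classes, edgeR called 0, 0, 0 and 0 members without control 1 (1.23%, 0.808%, 0.572% and 2.32% of all genes) and 3, 5, 5 and 1 without control 2 (2.34%, 1.4%, 1.1% and 2.22%). It called 6, 14, 17 and 0 without EV 1, where 15.6%, 21.4%, 21.3% and 0.45% of all genes were called, and 0, 7, 6 and 0 without EV 2 (2.58%, 4.2%, 3.99% and 1.38%). Without EV 1 the share of members called was below that of all genes in each lymphocyte class. All genes had then shifted upward on this scale, with median log2 fold changes of 0.09, 0.12 and 0.09 in B cells, CD4 and CD8 T cells. With TMM normalization the shares of all genes called without EV 1, given above, were high as well. The medians were then −0.01 in each of these classes. What part the shift of scale had in the share of all genes was not tested.

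Rps29, a protein of the head of the small subunit, had the lowest fold change of the family in each class. It took 3.05%, 2.16%, 1.83% and 1.77% of the family UMIs of B cells and 2.95%, 2.09%, 1.73% and 1.68% of those of CD8 T cells. In CD4 T cells it took 3.36%, 2.41%, 1.96% and 1.90% and in macrophages 4.29%, 2.77%, 2.34% and 2.24%. The EV libraries were below the control libraries throughout, but control 2 was closer to the EV libraries than to control 1. On the family scale the log2 fold change in B cells was −0.54 ± 0.13 (SE), with an edgeR adjusted p of 0.0256. For CD8 T cells it was −0.57 ± 0.12 (adjusted p = 0.0435). The test was not passed in CD4 T cells, at −0.58 ± 0.13 (adjusted p = 0.0835), or in macrophages, at −0.62 ± 0.20 (adjusted p = 0.33). In CD4 T cells it was passed with DESeq2 (adjusted p = 0.0122), in cells thinned to 1000 UMIs (adjusted p = 4.0e-04) and without EV 1, EV 2 or control 2 (adjusted p = 2.7e-04, 0.00197 and 4.0e-11), but not without control 1 (−0.32, adjusted p = 0.20). Leaving out control 1 brought the change to −0.27 in B cells and −0.30 in CD8 T cells (adjusted p = 0.90 and 0.29), and neither call remained. The call in B cells was lost as well without EV 1 (−0.56, adjusted p = 0.0829), without EV 2 (−0.51, adjusted p = 0.23) and with DESeq2 (adjusted p = 0.0628). Across the alternatives the adjusted p ran between 3.3e-05 and 0.90 in B cells, 4.0e-11 and 0.20 in CD4 T cells, 8.9e-13 and 0.29 in CD8 T cells and 7.1e-08 and 0.85 in macrophages.

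Rps27, a zinc-binding protein of the small subunit, took 3.20%, 2.44%, 2.04% and 2.04% of the family UMIs of B cells. The EV libraries were equal to within the last digit and control 1 was far above control 2. The log2 fold change on the family scale was −0.47 ± 0.12 (SE, edgeR adjusted p = 0.0368). It was −0.26 without control 1 (adjusted p = 0.89), −0.47 without EV 1 (adjusted p = 0.0822) and −0.47 without EV 2 (adjusted p = 0.19), none of which passed, nor did DESeq2 (adjusted p = 0.0980). The lowest and the highest adjusted p of the alternatives were 5.5e-04 and 0.89. The T cells gave the same order of libraries, with 2.56%, 2.03%, 1.74% and 1.72% in CD4 and 2.41%, 1.87%, 1.58% and 1.59% in CD8 T cells, and changes on this scale of −0.41 and −0.43 that did not pass, although both passed without EV 1, EV 2 or control 2. Rps27rt held 2.79% to 4.23% of the UMIs of Rps27 and Rps27rt in B cells, and the shares of both genes together gave a log2 ratio of −0.46.

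**Figure D2:**
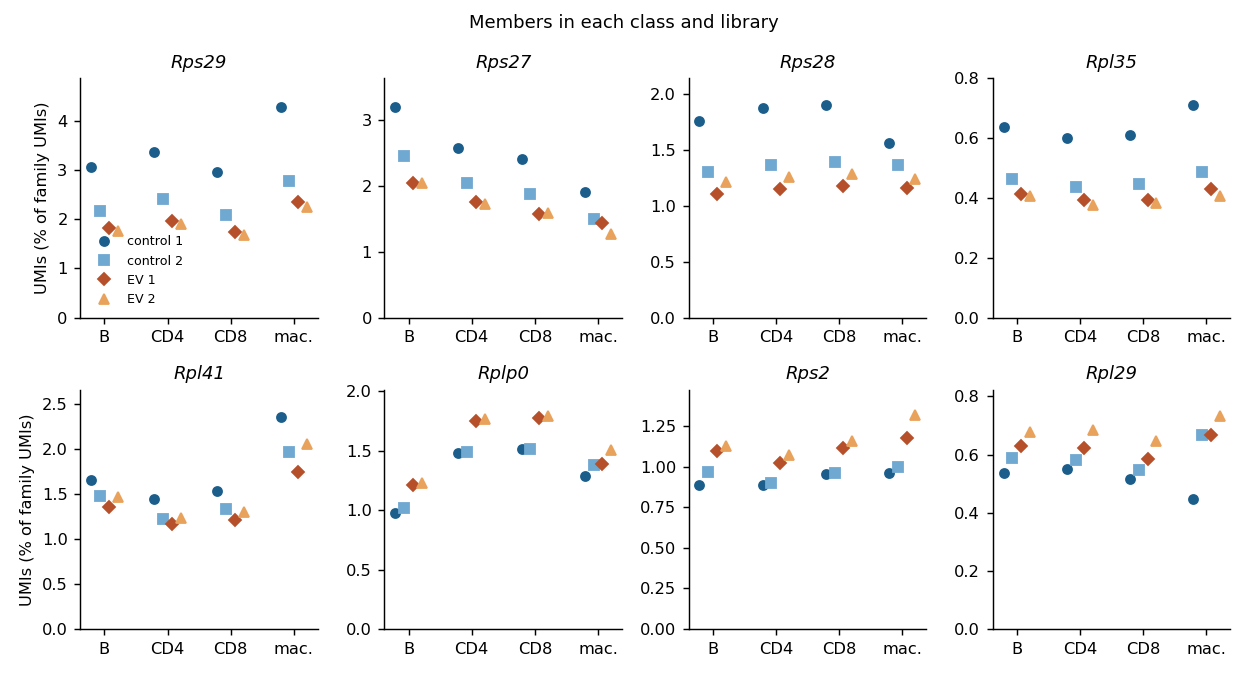
Share of the family UMIs (vertical axes, percent) of 8 members by class, with a point for each library. Rps29, Rps27, Rps28 and Rpl35 are highest in control 1, next in control 2 and lowest in the EV libraries in every class, while Rplp0 and Rps2 are higher in both EV libraries than in both controls.

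Rps28, a short protein that sits beside the mRNA exit of the small subunit, showed this order of libraries too. It held 1.87%, 1.37%, 1.15% and 1.26% of the family UMIs of CD4 T cells and 1.76%, 1.30%, 1.11% and 1.21% of those of B cells. Against all other genes the log2 fold change was −0.48 ± 0.14 (SE) in CD4 T cells and −0.41 ± 0.16 in B cells, without a call (edgeR adjusted p = 0.12 and 0.21). Rpl35, a protein of the large subunit near the exit of the peptide tunnel, held 0.600%, 0.436%, 0.392% and 0.378% in CD4 T cells and 0.638%, 0.463%, 0.414% and 0.406% in B cells. Its log2 fold change lay between −0.43 and −0.69 in the 4 classes (edgeR adjusted p from 0.11 to 0.40). Gm2000, which shares most of the sequence of Rpl35, held 11.4% to 18.5% of the UMIs of both in B cells, lowest in control 1, and the log2 ratio of both together was −0.35. Rpl41 was less ordered. It held 1.45%, 1.23%, 1.17% and 1.23% in CD4 T cells, where EV 2 was above control 2, and its log2 fold change there was −0.21 ± 0.11 (edgeR adjusted p = 0.39).

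Together, the members with proteins of at most 100 residues took a smaller part of the family in EV than in control libraries. They are 12 genes, of which 9 (Rpl37, Rpl37a, Rpl38, Rpl39, Rpl41, Rps21, Rps27, Rps28 and Rps29) belong to a subunit. They held 18.9%, 15.1%, 13.3% and 13.9% of the family UMIs of B cells and 17.6%, 14.0%, 12.3% and 12.8% of those of CD4 T cells. In CD8 T cells they held 17.4%, 13.8%, 12.1% and 12.7% and in macrophages 19.4%, 15.7%, 13.9% and 14.4%. The groups did not overlap in any class, with differences of −3.37, −3.26, −3.21 and −3.38 percentage points (exact permutation test, p = 0.33 in each class, the smallest possible). However, control 2 was closer to the EV group than to control 1. In B cells control 1 was 3.79 points above control 2, control 2 was 1.48 points above the EV mean, and the EV libraries were 0.541 points apart. In the other classes control 1 was 3.59 to 3.72 points above control 2, which was 1.42 to 1.52 points above the EV mean. Hence without control 1 the difference was −1.48 points in B cells, and without control 2 it was −5.26 points. The classes come from the same 4 libraries and are not independent of each other.

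The order control 1, control 2, then both EV libraries was found in 9 of 11 short members tested in B cells and in 6 of 71 longer ones. It was found in 7 of 12 short and 5 of 71 longer members in CD4 T cells, in 8 of 12 and 7 of 71 in CD8 T cells, and in 6 of 11 and 3 of 70 in macrophages. This full order was counted for members only, so no share of all genes stands beside it. Both EV libraries were below both controls, per family UMI, for 9 of 11 short members in B cells, where 23.4% of all genes were so, 7 of 12 in CD4 (18.5%) and 9 of 12 in CD8 T cells (22%), and 6 of 11 in macrophages (10.2%). Against all other genes the short members had median log2 fold changes of −0.22, −0.27, −0.24 and −0.47 in B cells, CD4 and CD8 T cells and macrophages, and the longer members of 0.06, 0.01, 0.05 and −0.14. Over all tested members, the log2 fold change rose with the number of residues (Spearman's rho 0.65 over 82 members in B cells, 0.63 over 83 in CD4 and 0.60 over 83 in CD8 T cells, and 0.46 over 81 in macrophages). The ratio of control 1 to control 2 fell with it (rho −0.33, −0.24, −0.37 and −0.35). These are correlations across genes of the same 4 libraries, and genes are not replicates. Control 1 was also the shallowest library, with a median of 4141.5 UMIs in B cells against 4905, 5811 and 5615. With cells thinned to 1000 UMIs the difference in B cells was −3.41 points. Thinning draws from UMIs already counted and leaves the expected share of a gene within a cell unchanged. This value is therefore no test of depth or capture. The part of library preparation and sequencing in this order was not tested.

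**Figure D3:**
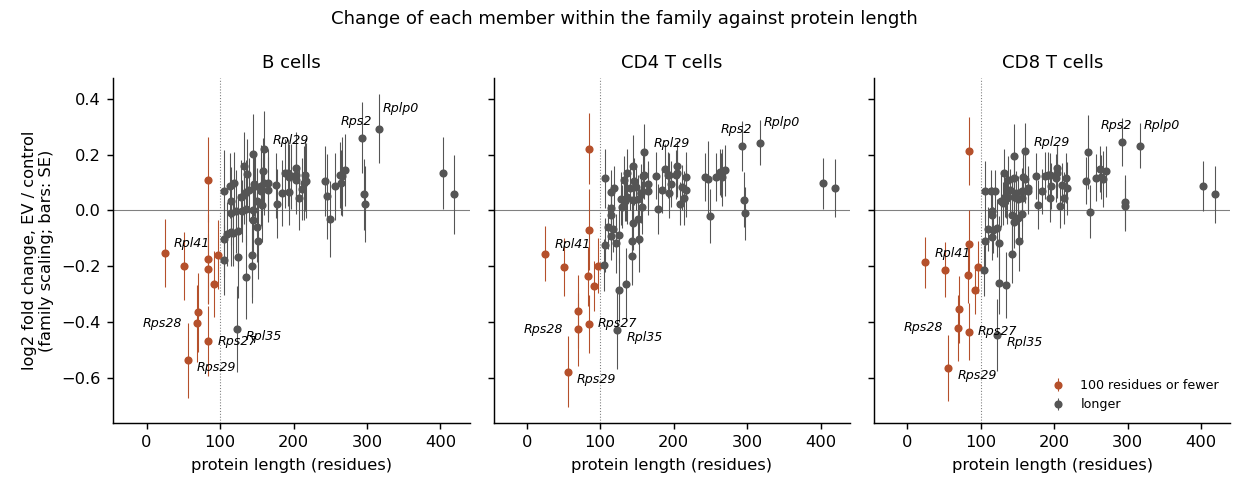
Log2 fold change, EV over control, on the family scale (vertical axis, bars are SE) against the residues of the protein (horizontal axis). Points are the tested members in B cells, CD4 and CD8 T cells, without Rpl39l, which had at most 27 UMIs per library. Macrophages are not drawn. Members of at most 100 residues lie mostly below 0 with Rps29 lowest, and most longer members lie near or above 0.

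At the other end stood Rplp0, the base of the ribosomal stalk that contacts the elongation factors, and Rps2, which lies near the mRNA entry of the small subunit. Rplp0 held 0.975%, 1.02%, 1.21% and 1.23% of the family UMIs of B cells and 1.48%, 1.49%, 1.75% and 1.77% of those of CD4 T cells. In both classes the libraries of a group lay close together, while for Rps29, Rps27 and Rps28 the controls lay apart. Its log2 fold change against all other genes was 0.29 ± 0.13 (SE) in B cells, 0.19 ± 0.11 in CD4 T cells and 0.21 ± 0.11 in CD8 T cells, none of which passed (edgeR adjusted p from 0.28 to 0.42). In macrophages it was −0.09 ± 0.18 (edgeR adjusted p = 0.95), or 0.36 under the stricter gate, also without a call. Rps2 held 0.888%, 0.966%, 1.10% and 1.12% in B cells, with a log2 fold change of 0.25 ± 0.13 (edgeR adjusted p = 0.34). In CD4 T cells, CD8 T cells and macrophages its change was 0.18, 0.23 and 0.14. Rpl29, a basic protein of the large subunit, held 0.535%, 0.588%, 0.630% and 0.678% in B cells, a log2 fold change of 0.21 ± 0.12 (edgeR adjusted p = 0.40). Rpl12, beside the stalk, and Rpl8, a protein close to the peptidyl transferase center, were among the 3 members furthest above the median in macrophages, at 0.835%, 1.06%, 1.25% and 1.15% for Rpl12 and 0.865%, 0.822%, 1.08% and 1.05% for Rpl8. Their log2 fold changes there were 0.12 ± 0.21 and 0.13 ± 0.18, and without control 1 that of Rpl12 was −0.12. Per family UMI, both EV libraries were above both controls for 37 of 82 members in B cells (19.1% of all genes), 34 of 83 in CD4 (27.8%) and 34 of 83 in CD8 T cells (22.1%), and 27 of 81 in macrophages (32.2%). In that order of classes, so were 23, 19, 20 and 7 of the 28 translation factors and further TOP mRNAs described below. For 0, 1, 1 and 4 of those genes both EV libraries were below both controls (23.4%, 18.5%, 22% and 10.2% of all genes). Among 78, 78, 78 and 42 tested genes of the mitochondrial ribosome, 29, 43, 36 and 12 were above and 10, 7, 9 and 5 below.

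Rpsa, Rack1 and Fau, the components with other names, were not called. In B cells Rpsa had UMIs equal to 1.56%, 1.61%, 1.80% and 1.90% of the family UMIs, and Rack1, which also serves as a scaffold for kinases, to 0.596%, 0.637%, 0.670% and 0.725%. Both genes were higher in both EV libraries there. Fau stood at 2.99%, 3.02%, 2.89% and 2.94% and was lower in both EV libraries. An unadjusted p under 0.05 was reached by 0, 0, 0 and 1 of these 3 genes in B cells, CD4 and CD8 T cells and macrophages, and DESeq2 called 0 in every class.

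For some longer members EV 2 alone stood apart. These were named after their values were seen. Rps18, in the head of the small subunit, held 1.41%, 1.50%, 1.54% and 1.18% of the family UMIs of CD4 T cells, and Rps23, at the decoding center, held 1.51%, 1.58%, 1.53% and 1.23%. Rps18 was lowest in EV 2 and highest in EV 1, and Rps23 in EV 1 lay between the controls. B cells showed 1.31%, 1.42%, 1.45% and 1.08% for Rps18. EV 2 was also the library with the least Gm42418, at 0.0719% of the UMIs of CD4 T cells against 0.547% in EV 1, and the part of whatever sets this library apart was not tested.

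The genes that resemble ribosomal protein genes were low. Rpl22l1, a paralog of Rpl22, held 0.312%, 0.301%, 0.288% and 0.276% of the family UMIs of CD4 T cells, and Rpl36al, a paralog of Rpl36a, held 0.253%, 0.266%, 0.285% and 0.276%. The log2 fold changes were −0.17 and 0.06 (edgeR adjusted p = 0.46 and 0.82). Rps27l, a paralog of Rps27 that p53 can induce, held 0.0287%, 0.0292%, 0.0359% and 0.0316% in CD4 and 0.0286%, 0.0294%, 0.0329% and 0.0343% in CD8 T cells. It was higher in both EV libraries of both classes, by 0.17 ± 0.11 and 0.19 ± 0.08 (log2, SE), and did not pass (edgeR adjusted p = 0.48 and 0.23). Rpl39l had 10, 16, 4 and 19 UMIs in CD4 T cells, and a difference was not detectable at this depth.

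Lists by role had medians near 0 in lymphocytes. The median log2 fold change in B cells, CD4 and CD8 T cells and macrophages was 0.04, −0.01, 0.03 and −0.18 for the small subunit, 0.06, 0.01, 0.04 and −0.17 for the large subunit, 0.08, 0.01, 0.05 and −0.22 for the stalk genes Rplp0, Rplp1 and Rplp2, and −0.01, −0.09, −0.05 and −0.23 for the 4 members on chromosome X, with 0 members called in each list and class. An unadjusted p under 0.05 was found for 3, 4, 3 and 4 small subunit and 2, 6, 4 and 5 large subunit members, and DESeq2 called 3, 2, 1 and 0 of the small and 1, 2, 1 and 0 of the large subunit. Over all genes 18.9%, 16.7%, 18.2% and 9.06% reached that unadjusted p and 3.68%, 1.88%, 2.01% and 0.00773% were called by DESeq2. The stalk had 0 in every class and the members on X 0, 0, 0 and 1 at an unadjusted p under 0.05, and DESeq2 called 0 of either list in any class. The small subunit held 46.4%, 46.1%, 45.7% and 45.4% of the family UMIs of B cells, lower in both EV libraries (difference −0.69 points, exact permutation test, p = 0.33). This sum includes Rps27, Rps28 and Rps29, described above. Per family UMI, both EV libraries were above both controls for 13 of its 30 members (19.1% of all genes). They were below both for 6 (23.4% of all genes).

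Other genes of translation were compared in the same fits. The 28 translation factors and further TOP mRNAs, among them Eef1a1, Eef2 and Tpt1, had medians of 0.16, 0.09, 0.11 and −0.08, with 0 called in each class, 5, 3, 6 and 0 at an unadjusted p under 0.05 and 3, 0, 1 and 0 called by DESeq2. The proteins of the separate ribosome inside mitochondria had medians of 0.04, 0.06, 0.05 and 0.00 over 78, 78, 78 and 42 tested genes, of which 1 was called, higher in EV libraries, in CD4 T cells and 0 in the other classes (unadjusted p under 0.05 for 7, 6, 11 and 0, DESeq2 0, 1, 0 and 0). The mitochondrially encoded genes had medians of 0.15, 0.15, 0.10 and −0.31 over 13, 13, 13 and 12 tested genes. Of these, 0, 1, 4 and 0 were called lower (unadjusted p under 0.05 for 6, 5, 6 and 3, DESeq2 6, 3, 3 and 0). Over all genes, 130 of 13270, 36 of 11933, 105 of 12284 and 1 of 3497 were called lower. In either direction 2.55%, 1.09%, 2.2% and 0.0286% of all genes were called. An unadjusted p under 0.05 was found for 18.9%, 16.7%, 18.2% and 9.06% of them, and DESeq2 called 3.68%, 1.88%, 2.01% and 0.00773%.

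Whether the effect of EVs on a member differed between classes was tested by an interaction term with library as a block. It called 0 of 83 members for B cells against CD4 T cells, 0 of 83 for CD8 against CD4 T cells and 0 of 82 for macrophages against B cells, where 1.79%, 0.377% and 0.172% of all genes were called by edgeR. The smallest adjusted p of a member was 0.25, 0.38 and 1. An unadjusted p under 0.05 was found for 2, 15 and 0 members, where 11.4%, 8.09% and 5.02% of all genes had one, and DESeq2 called 0 in each pair. The differences between the log2 fold changes ran from −0.08 to 0.15, from −0.01 to 0.53 and from −0.17 to 0.40. The range for CD8 against CD4 T cells includes Rpl39l, whose few UMIs did not allow a difference to be detected.

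Members were also compared between classes of the same 4 libraries, on the family scale with library as a block. This comparison was added after the values were seen. CD4 T cells and B cells differed in 66 of 82 members by edgeR, 29 higher and 37 lower in CD4 T cells, where 83.5% of all genes differed. CD8 and CD4 T cells differed in 63 of 83, 31 higher and 32 lower in CD8 T cells (57.9% of all genes). Macrophages and B cells differed in 21 of 82, 13 higher and 8 lower in macrophages (26.9% of all genes). By edgeR the share of members that differed was above that of all genes for CD8 against CD4 T cells and below it in the other pairs. On this scale, however, the other genes move with the family share of a class. Of the 10519, 7023 and 3052 genes called by edgeR, 8532, 5906 and 1316 were lower in the first class of the pair. The share of all genes is therefore no yardstick for the members here. DESeq2, run on the same scale, called 63, 40 and 20 of 84 members in these pairs, against 62.4%, 31% and 21% of all genes. These shares are no yardstick either. DESeq2 gave an adjusted p to 17503, 15291 and 13709 genes after its own filter on low counts. The filter used with edgeR left 12605, 12132 and 11362. The median size of the log2 difference over the members was 0.11, 0.05 and 0.18 in these pairs.

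The 4 members furthest toward CD4 T cells were Rplp0, Rpl5, Rpl12 and Rplp1. Rplp0 held 1.48%, 1.49%, 1.75% and 1.77% of the family UMIs in CD4 T cells and 0.975%, 1.02%, 1.21% and 1.23% in B cells, a log2 difference of 0.55 ± 0.02 (SE, edgeR adjusted p = 2.9e-08). Rplp1, its partner in the stalk, was 0.38 ± 0.02 higher, the third stalk gene Rplp2 0.18 ± 0.02 higher and Rpl12 0.45 ± 0.02 higher. Rpl5, which carries the 5S ribosomal RNA and can bind Mdm2, held 0.846%, 0.846%, 0.799% and 0.881% against 0.586%, 0.581%, 0.567% and 0.620%, a difference of 0.52 ± 0.02. Rplp0, Rplp1, Rpl12 and Rpl5 were higher in CD4 T cells in 4 of 4 libraries (edgeR adjusted p from 2.9e-08 to 1.2e-07). The members furthest toward B cells were 4 that belong to neither subunit list. Rpl7l1 differed by −0.82 ± 0.06, Rps19bp1 by −0.79 ± 0.07, Rps27l by −0.48 ± 0.05 and Rps27rt by −0.39 ± 0.04, each in 4 of 4 libraries (edgeR adjusted p from 1.7e-06 to 3.0e-05).

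Differences between CD8 and CD4 T cells were smaller. Rpl32 of the large subunit held 1.79%, 1.87%, 1.95% and 1.84% of the family UMIs in CD8 and 1.63%, 1.71%, 1.77% and 1.67% in CD4 T cells, a log2 difference of 0.13 ± 0.01 (SE, edgeR adjusted p = 1.6e-08). Rps18 and Rps12 were 0.13 and 0.11 higher in CD8 T cells. Rps29 was furthest toward CD4 T cells, at 2.95%, 2.09%, 1.73% and 1.68% in CD8 and 3.36%, 2.41%, 1.96% and 1.90% in CD4 T cells. This difference of −0.19 ± 0.01 (edgeR adjusted p = 2.9e-10) was seen in each library, although Rps29 itself moved by more than that between libraries. Rps15 and Rpl31 differed by −0.16 and −0.15, and these 6 genes kept their sign in 4 of 4 libraries. Rpl7l1 differed by −0.18 ± 0.05 (edgeR adjusted p = 0.0105), and its call was lost with DESeq2 (−0.18), in thinned cells (−0.03) and without control 1 (−0.13).

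Macrophages, with only 13648, 39312, 51876 and 42655 family UMIs, stood apart from B cells by Rps27l. It held 0.132%, 0.122%, 0.175% and 0.136% of the family UMIs in macrophages and 0.0398%, 0.0439%, 0.0459% and 0.0445% in B cells, a log2 difference of 1.69 ± 0.20 (SE, edgeR adjusted p = 4.2e-15). Its paralog Rps27, printed beside it above, went the other way, with 1.90%, 1.50%, 1.43% and 1.26% in macrophages and 3.20%, 2.44%, 2.04% and 2.04% in B cells, a difference of −0.66 ± 0.10 (edgeR adjusted p = 4.2e-10). Over the alternatives, the stricter gate among them, Rps27l differed by 1.47 to 2.07 and Rps27 by −1.13 to −0.63. Rplp1, Rpl23a and Rpl36al were 0.65, 0.65 and 0.61 higher in macrophages, and Rpl8 and Rps15a differed by −0.43 and −0.42, each in 4 of 4 libraries (edgeR adjusted p from 2.5e-10 to 8.6e-04). Rps27rt, with 9, 19, 28 and 15 UMIs in macrophages, differed by −0.82 ± 0.24 (edgeR adjusted p = 0.00306). This call was lost in thinned cells, under the stricter gate, with the other cell filter and without EV 2.

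**Figure D4:**
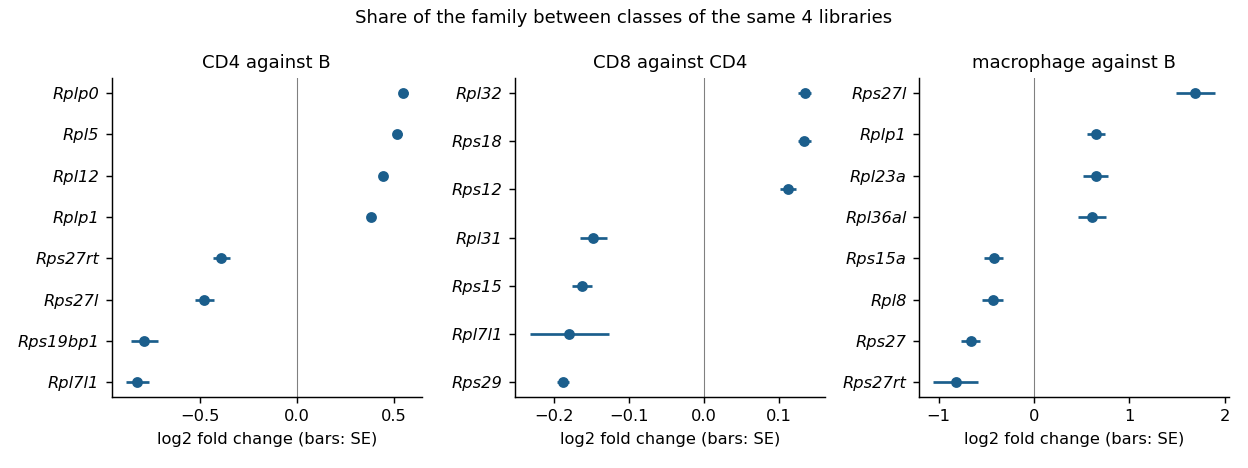
Log2 difference of the share of the family (horizontal axes, bars are SE) between classes of the same libraries, for up to 4 called members far from 0 in each direction. Rps27l in macrophages against B cells is the largest, at 1.69, and all differences between CD8 and CD4 T cells lie within 0.2 of 0.

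The TOP motif was looked for at the annotated start of transcription (RefSeq, GRCm38.p6), on the strand of the gene, as a C at the start base followed by 4 bases that are C or T. It was there in 13 of the 56 members of the subunits that had an entry (23.2%) and in 813 of 27025 genes (3.01%). Of the short members 3 of 8 had it and of the longer ones 10 of 48. Within 10 bases of the start it occurred in 34 of 56 members, against 34.4% of all genes. For 6 members described above or in the short list, 30 bases are printed from 10 before the start base, with the run of pyrimidines from the start base in capitals where the motif was there.
Rps27 (chr3:90213629-90213658, reverse strand): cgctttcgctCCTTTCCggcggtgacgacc
Rpl38 (chr11:114668570-114668599, forward strand): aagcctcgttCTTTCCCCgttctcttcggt
Rps21 (chr2:180257369-180257398, forward strand): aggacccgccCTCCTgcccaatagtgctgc
Rpl35 (chr2:39005112-39005141, reverse strand): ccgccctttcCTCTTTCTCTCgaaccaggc
Rplp0 (chr5:115559457-115559486, forward strand): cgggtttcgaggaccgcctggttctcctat
Rps2 (chr17:24720053-24720082, forward strand): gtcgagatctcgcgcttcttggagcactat
Rps27, Rpl38, Rps21 and Rpl35 had the motif at the annotated base, and Rplp0 and Rps2 did not. A further annotated start of Rps21 was without it, and a gene was counted if any of its starts had the motif. Among the short subunit members whose starts are not printed, Rps28, Rpl37, Rpl37a, Rpl39 and Rpl41 were without it, and Rps29 had no entry. This says only which letters stand at these annotated starts.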

How the data were processed

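Draining lymph node cells of 2 control and 2 EV-treated replicates were measured with the 10x Genomics 3′ kit (v3.1), 1 library each. The authors aligned reads to the mouse genome mm10 and deposited raw UMI counts per gene and barcode made with Cell Ranger 7.1.0. Which annotation they used and whether reads in introns were counted is not given in the sources used here. Counts were not divided by transcript length, and whether capture depended on length was not tested. Groups were taken from the labels. Each group has 2 biological replicates, and cells were never used as replicates.

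Cells with 200 to 5000 genes, at most 20000 UMIs and under 10% mitochondrial UMIs were kept. The study's further limit of 60% ribosomal UMIs, which would act on the family itself, was an alternative. No doublets were removed. Classes were gated by marker UMIs (macrophages without Cd3e, B cells and T cells without each other's markers, and CD4 and CD8 T cells without Cd8a and Cd4), not by the study's clusters. Raw UMIs were added up by library and class and tested with edgeR 4.0.16 (quasi-likelihood, filterByExpr, two-sided, Benjamini-Hochberg over all genes tested), with TMM library sizes or with library sizes set to the family total. The study compared single cells by a Wilcoxon test instead. Single values were compared by exact permutation. The fits were tested on simulated counts. R was 4.3.3, DESeq2 1.42.0, scipy 1.17.1 and pandas 2.3.3.

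Protein lengths came from GENCODE M21 coding sequences. Members, lists and tests were chosen with earlier results of these data known. Named members were those called, the 3 furthest above and below the family median without overlap of groups, and a list of Rps28, Rps29, Rpl41, the paralogs and components with other names, and, between classes, the 4 called members furthest in each direction. Some items these rules name are not reported here. Alternatives were DESeq2, no filterByExpr, library sizes or denominators over other genes, a replicate block, cells thinned to 1000 UMIs, the 60% limit, no upper limits with 5% mitochondrial UMIs, a stricter gate, another member list, a log2 change of at least 0.25 and each library left out. A fit with 1 library in a group assumes that it varies like the others.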

Additional observations from a re-analysis of the deposited data

How the results depend on the processing

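With 2 libraries per group, leaving out any 1 library changed calls, and cells of 1 library share its depth and preparation. The fall of the short members as a sum and the class differences of the named members kept their direction under all alternatives run on them. Of 744 comparisons of single named members with an alternative, 661 kept direction and side of the threshold, 57 gained and 7 lost a call and 19 changed sign. The cause was not tested for any of these.

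The family share per UMI of the other genes differed by −3.67 points in CD4 T cells and −3.08 points in macrophages, a change of scale by construction. Under the stricter gate it differed by 2.31 points in macrophages, and over all kept cells at mean composition by −1.26 points. Relative to all genes, DESeq2 called 4 members in B cells, 4 in CD4 T cells and 2 in CD8 T cells. With no filter on low counts edgeR called 3, 5 and 6, and thinned cells gave 2 and the stricter gate 1 in CD4 T cells. On the family scale, DESeq2 called 0 in B cells and 1 in CD4 T cells, the unfiltered fit 5 in CD4 T cells, 5 in CD8 T cells and 1 in macrophages, thinned cells 3 in CD4 T cells and the stricter gate 2 in CD8 T cells. DESeq2 found 40 members that differ between CD8 and CD4 T cells.

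Control and EV replicates share only a number. Deviations of same-numbered libraries correlated at 0.0199, 0.0609, 0.0838 and 0.1351 over genes in B cells, CD4 and CD8 T cells and macrophages, from 2 pairs. With the replicate number as a block, 2 members were called in CD4 T cells, 2 in CD8 T cells and 1 in macrophages relative to all genes, and 3 in CD4 T cells and 4 in CD8 T cells on the family scale. Over DESeq2, the unfiltered fit, thinned cells, the stricter gate and this block, 2.56 to 8.91%, 1.04 to 6.60%, 0.558 to 8.29% and 0 to 1.63% of all genes were called in the 4 classes, and 1.18 to 3.72%, 0.758 to 2.88%, 0.2504 to 2.73% and 0 to 0.780% on the family scale.

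Leaving out each library in turn, the number of members called relative to all genes ran from 0 to 13 in B cells, 0 to 13 in CD4 T cells, 0 to 18 in CD8 T cells and 0 to 2 in macrophages, and on the family scale from 0 to 6, 0 to 14, 0 to 17 and 0 to 1. A lone library was then assumed to vary like the others.

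None of the sign changes was called. Rpl12 in CD4 T cells went to −0.049 with library sizes over other genes, −0.026 in thinned cells and −0.0061 with no upper limits, and ran from −0.083 to 0.13 without single libraries. In CD8 T cells it went to −0.0037 with library sizes over other genes and ran from −0.020 to 0.13, and in macrophages from −0.12 to 0.42. Without single libraries Rpl29 in macrophages ran from −0.23 to 0.54, and Rpl8 from −0.0099 to 0.16 in B cells and −0.0094 to 0.15 in CD4 T cells. Rplp0 in macrophages went to 0.059 without the filter, 0.20 in thinned cells and 0.36 under the stricter gate, and ran from −0.24 to 0.058. Rps27l in B cells went to −0.067 in thinned cells and ran from −0.020 to 0.22, and in macrophages from −0.086 to 0.27.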
